A study of Mus musculus with 24 samples.

Results

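The genes described here are 9 of the BCL2 family that control the mitochondrial route to apoptosis, namely the prosurvival genes Bcl2, Bcl2l1, and Mcl1, the pore-forming effectors Bak1 and Bok, and the BH3-only genes Bcl2l11, Bid, Bad, and Bik. They were chosen by name, as 9 of the 55421 Ensembl mouse genes counted, without use of their values. Type 2 alveolar epithelial cells (AEC2s), the surfactant-secreting progenitors of the alveolus, came from Krt8+/+ (WT) mice and from Krt8-/- (KO) mice, which lack keratin 8 in every cell rather than in the epithelium alone. RNA was sequenced from fresh cells (day 0) and after 1, 3, and 7 days in 2D culture, in which AEC2s pass through a keratin-rich transitional state toward an AEC1-like state. The labels name no agent for any of the 8 groups. Each group held 3 libraries, 1 for each of 3 biological replicates with a batch label of its own, numbered batches 1 to 3 by replicate, and both genotypes and all days carry the same 3 batch labels. The sources used here do not give the age of the mice or how many gave the cells of a batch.

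Proteins of the BCL2 family decide whether the outer mitochondrial membrane is opened. Prosurvival members bind and hold back both the effectors, which form the pore, and the BH3-only proteins, which sense stress and either activate the effectors or occupy the prosurvival members. A cell's commitment to apoptosis is therefore set by the balance among the classes, and much of it is decided on proteins (stability, cleavage, phosphorylation) that RNA does not show. Injured alveolar epithelium is a tissue in which AEC2 apoptosis has long been studied in relation to fibrosis.

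Library totals ranged from 10184439 to 19483386 counts. Values are counts per 1000000 (CPM) after TMM scaling, unless said otherwise, and since RNA was measured in bulk, fewer cells of a type and less RNA per cell cannot be told apart. Krt8 lay between 485 and 5092 CPM in WT libraries and between 21.2 and 47.4 CPM in KO libraries, so the genotype labels held in all 24. The summed level of 6 AEC2 markers was 208063 to 281892 CPM in WT cells on day 0 and 151 to 205 CPM on day 7, with none of the 6 genes at 0. On day 1 it was far lower in batch 2 than in batches 1 and 3, at 14803 against 86034 and 67256 CPM in WT cells and 13951 against 81728 and 61881 CPM in KO cells. In batch 1 the genotypes differed in sex, with Ddx3y, a gene of the Y chromosome, at 58.1 to 85.0 CPM in the KO libraries and at most 0.441 CPM in the WT libraries. Xist, a gene high in female cells, was at least 62.4 CPM in these WT libraries and at least 5.92 CPM in these KO libraries. In batch 3 it was at most 2.24 CPM. Whether the KO cells of batch 1 were of mixed sex was not tested. In both genotypes Ddx3y was at most 0.181 CPM in batch 2 and at least 63.6 CPM in batch 3. Leaving out a batch therefore also changes the sexes compared. Because of batch 1, the genotype differences of Bcl2l1, Bid, and Bad over days 1 to 7 are also given without it. The genotype comparisons of single days and the interaction are given with all batches only. The 6 macrophage markers summed to between 6.06 and 157 CPM in all libraries and were lowest in batch 3 in every group.

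Among the members, Bcl2l11 had the largest fall and Bid the most precise large rise over the culture, and the start-site windows of both are shown here for that reason. RefSeq windows of 300 bases (GRCm38.p6), from 250 bases before to 50 bases after an annotated start, were at hand for 8 of the 9 members, with 12 windows in all, and none was matched for Bik. The window of Bcl2l11 shown is chr2:128125788-128126087 on the + strand, with the letters of a FOXO motif in capitals. The window of Bid is chr6:120916775-120917074 on the - strand and holds none of the motifs searched.
Bcl2l11: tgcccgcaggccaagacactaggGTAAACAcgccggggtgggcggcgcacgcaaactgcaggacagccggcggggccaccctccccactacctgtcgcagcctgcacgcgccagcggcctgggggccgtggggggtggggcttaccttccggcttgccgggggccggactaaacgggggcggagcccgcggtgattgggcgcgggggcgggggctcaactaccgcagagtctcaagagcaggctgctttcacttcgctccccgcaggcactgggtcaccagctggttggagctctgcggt
Bid: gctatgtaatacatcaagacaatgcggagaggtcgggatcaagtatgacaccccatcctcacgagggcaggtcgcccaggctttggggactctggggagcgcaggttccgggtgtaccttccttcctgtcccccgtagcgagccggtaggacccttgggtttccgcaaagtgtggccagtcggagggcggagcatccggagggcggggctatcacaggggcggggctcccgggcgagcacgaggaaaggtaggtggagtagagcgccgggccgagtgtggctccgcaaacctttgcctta
The motifs were chosen with the values known, and were searched on both strands as the FOXO motif GTAAACA, which reads as TGTTTAC on the opposite strand, the AP-1 motif TGANTCA, the cyclic AMP response element TGACGTCA, and the E-box CACGTG, none of which holds another. The FOXO letters occurred in 1 of the 12 windows, at position 24 of the Bcl2l11 window, and in 3.65% of 32851 RefSeq windows of the same length. The AP-1, cyclic AMP, and E-box letters occurred in 0 of the 12 windows, and in 7.81%, 1.79%, and 7.15% of all windows. These matches describe letters only. The windows of the members also differed in CpG content, from 1 to 44 CpG pairs, against a median of 7 over all windows.

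Levels of different genes were compared only per length, as CPM per kilobase of merged exons. On this scale Mcl1, whose short-lived protein binds BAK and BIM, was the highest of the 9 in each of the 24 libraries. It held 60.8% ± 2.37 (SD, n = 3) of the summed level of the 9 genes in fresh WT cells. Its share was 60.2% ± 6.81 on day 1, 47.4% ± 2.83 on day 3, and 42.7% ± 1.07 on day 7.

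Bcl2l1, which encodes BCL-XL, was the second by mean in every group. Its share in WT cells was 15.7% ± 0.0807 on day 0 and 24.8% ± 1.84 on day 7 (SD, n = 3). The counts are per gene, so the long prosurvival form and the short form of Bcl2l1 cannot be separated. Bcl2, the family's founding member, held 0.404% ± 0.176 of the summed level on day 0 and 0.676% ± 0.181 on day 7. It was thus among the 2 lowest genes in every group, beside Bak1 or Bcl2l11. The shares shifted in the same way in KO cells, from 63.4% ± 4.72 to 40.8% ± 1.83 for Mcl1 and from 14.8% ± 1.58 to 26.8% ± 1.83 for Bcl2l1.

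**Figure D1:**
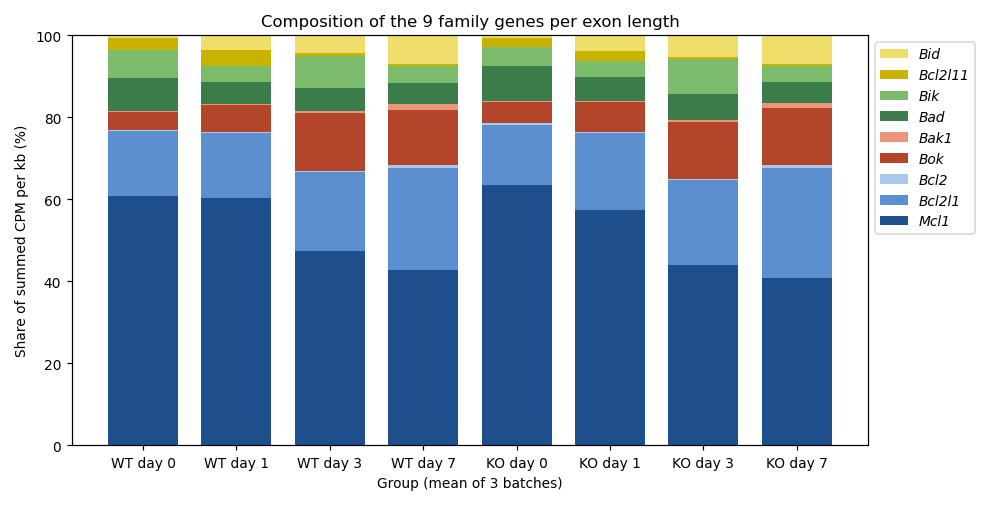
Stacked bars give the mean share (%) of each gene in the summed CPM per kilobase of the 9 genes, for the 8 groups of genotype and day (means of 3 batches). Mcl1 (darkest blue) shrinks from 60.8% on WT day 0 to 42.7% on day 7, while Bcl2l1, Bok, and Bid take more of the bar in both genotypes.

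The shares by class are of the listed genes only and do not give the balance of the whole family. They leave out, among others, the effector Bax and the BH3-only genes Pmaip1 and Bmf. From WT day 0 to day 7 mean CPM went from 42.4 to 186 for Bax. It went from 0.456 to 461 for Pmaip1 and from 55.1 to 1.73 for Bmf. The listed prosurvival genes held 76.9% ± 2.54 of the summed level in fresh WT cells and 68.2% ± 1.23 on day 7. The 2 groups did not overlap. The listed effectors held 4.48% ± 2.32 and 15.0% ± 2.51, nearly all of it Bok. The listed BH3-only genes kept a similar total, 18.6% ± 2.27 and 16.7% ± 1.64, but its makeup turned over. Bad (8.23%) and Bik (6.68%) led on day 0, and Bid held 0.822% ± 0.0691. On day 7 Bid held 7.13% ± 0.835 and was the highest of the listed BH3-only genes in each WT library, while Bcl2l11 held 0.546% ± 0.0811. Neighbours in the order were often not separated in every library, such as Bad and Bik or Bok and Bcl2l11 in fresh WT cells.

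The ratio of Bcl2l1 to Mcl1 within a library summarises the prosurvival shift. Per kilobase it was 0.253, 0.269, and 0.254 in the fresh WT libraries of batches 1 to 3, and 0.611, 0.616, and 0.518 on day 7. In KO cells it was 0.214, 0.207, and 0.285 on day 0 and 0.604, 0.691, and 0.681 on day 7. All day 7 libraries lay above all day 0 libraries in both genotypes. On day 1 batch 2 stood above the other batches in both genotypes, at 0.391 against 0.217 and 0.208 in WT cells and at 0.427 against 0.275 and 0.302 in KO cells, and it is also the batch with the lowest AEC2 markers on that day. What part that has in the ratio was not tested. With the length of the longest transcript in place of merged exons the ratio was higher throughout, with means of 0.462 and 1.04 on WT days 0 and 7, and 1.18 on KO day 7, so that on that scale Bcl2l1 was above Mcl1 by mean on day 7, though not in the WT library of batch 3.

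Which members change as AEC2s enter culture was asked by comparing each day with day 0 in each genotype, with edgeR's quasi-likelihood test on 18046 genes and Benjamini-Hochberg adjusted p-values under 0.05. All 9 members passed the filter on low counts. In WT cells 2 of the 9 passed on day 1, where 54.7% of all genes did, with 1 member up (26.2% of all genes) and 1 down (28.5%). On day 3, 6 passed against 54.0% of all genes, with 3 up (26.1%) and 3 down (27.8%). On day 7, 7 passed against 58.8%, with 4 up (28.6%) and 3 down (30.2%). In KO cells 3 members passed on day 1 against 50.6% of all genes, with 2 up (23.7%) and 1 down (26.9%). Then 6 passed on day 3 against 52.0%, with 4 up (25.4%) and 2 down (26.6%), and 8 on day 7 against 58.5%, with 5 up (28.6%) and 3 down (29.9%). More than 50% of all genes changed with culture, so these counts lie below the background share on day 1 and above it on days 3 and 7, by at most 3 of the 9, and no more is read from them. The median log2 difference of the 9 members was 0.67 in WT cells and 0.86 in KO cells on day 7, beside medians of 0.00 over all genes in both. Both genotypes' comparisons rest on their own day 0 libraries, whereas the 3 days share them.

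**Figure D2:**
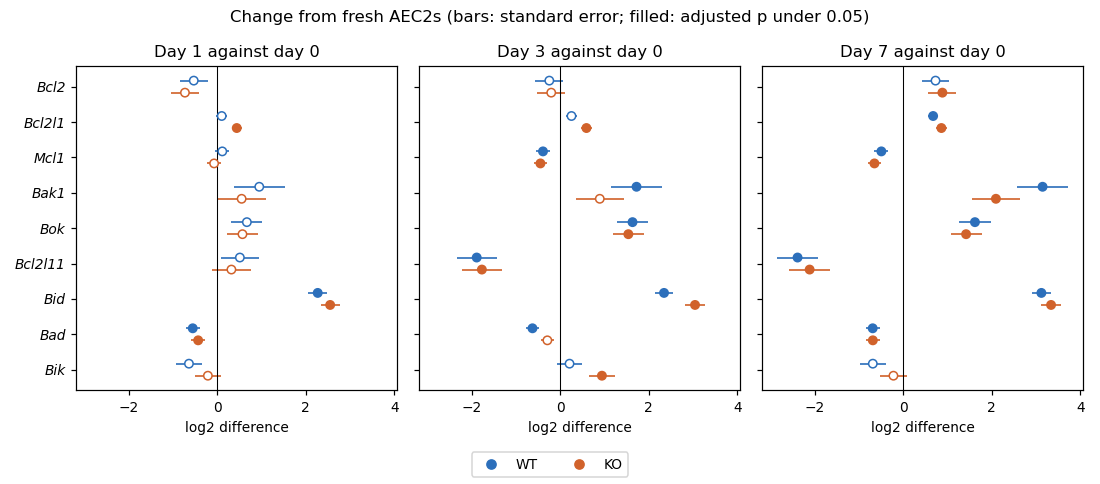
Log2 differences from day 0 (x axis) for each member (y axis) on days 1, 3, and 7, in WT (blue) and KO (orange) cells, with standard errors as bars and filled points for an adjusted p under 0.05. Bid is far to the right from day 1 on, Bak1 and Bok move right, and Bcl2l11 lies to the left on days 3 and 7 in both genotypes.

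Culture days were also compared with each other. From day 1 to day 3, 4 members passed in WT cells (26.3% of all genes) and 3 in KO cells (23.6%). From day 3 to day 7, 2 members passed in each genotype, against 6.58% of all genes in WT and 10.5% in KO cells.

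**Figure D3:**
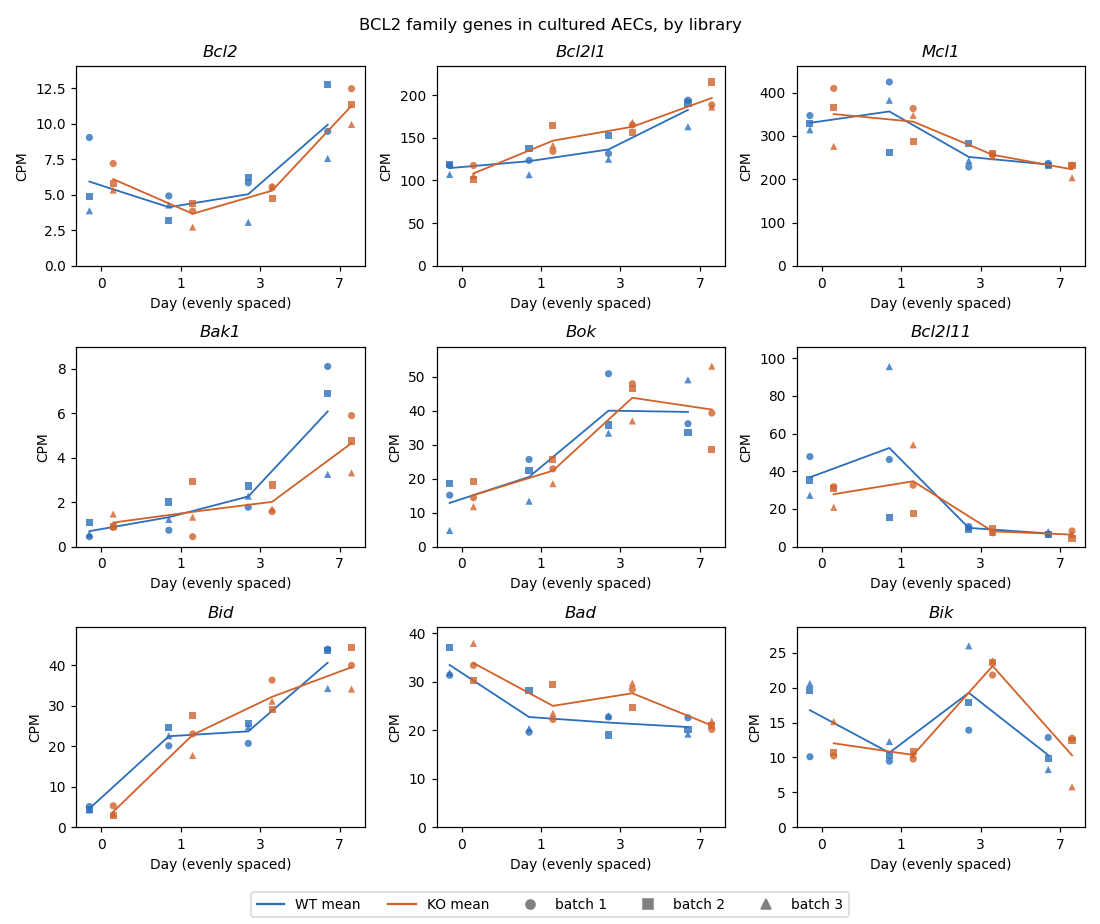
CPM (y axis, starting at 0) of each of the 9 genes by day (x axis, evenly spaced) in WT (blue) and KO (orange) libraries; symbols mark batches 1 to 3 and lines join group means. Bid climbs in every batch, Bcl2l11 is scattered on day 1 with batch 3 on top in both genotypes, and Bik peaks on day 3.

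Of the prosurvival genes, Bcl2l1 (chromosome 2, 152780668 to 152831728, - strand, GRCm38) rose steadily. In WT cells it stood at 118, 119, and 107 CPM on day 0 (batches 1 to 3), 124, 138, and 107 on day 1, 132, 153, and 125 on day 3, and 194, 191, and 163 on day 7. Every day 7 library was above every earlier library. The log2 rise from day 0 to day 7 was 0.67 (SE 0.12, edgeR adjusted p = 5.85e-05), or 1.59-fold. In KO cells it went from 118, 102, and 106 CPM to 134, 165, and 141 on day 1 and to 189, 215, and 186 on day 7, a log2 rise of 0.44 (edgeR adjusted p = 0.00436) by day 1 and 0.86 (SE 0.12, adjusted p = 3.2e-06) by day 7. In WT cells the day 1 difference of 0.10 did not pass. Whether the genotypes differed in this early step alone was not tested. The interaction of genotype and day, a joint edgeR test over all days, had an unadjusted p of 0.171.

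Mcl1 (chromosome 3, 95658788 to 95663176, + strand) moved the opposite way. Its WT libraries held 347, 329, and 314 CPM on day 0, 425, 263, and 382 on day 1, 228, 283, and 243 on day 3, and 237, 231, and 235 on day 7. The day 7 libraries were close together and below all day 0 libraries, whereas those of day 1 were scattered, with batch 2 lowest. Mcl1 fell by 0.50 on the log2 scale by day 7 in WT cells (SE 0.16, edgeR adjusted p = 0.00972) and by 0.65 in KO cells (SE 0.16, adjusted p = 0.00124). The WT call was lost without batch 1 (log2 difference -0.47, adjusted p = 0.0675) or batch 3 (-0.53, adjusted p = 0.0515), while the KO call held in each alternative. The smaller falls by day 3, -0.39 in WT and -0.45 in KO cells, passed with all batches (adjusted p = 0.0388 and 0.0201) but not without batch 1 (-0.29 and -0.32) or batch 2 (-0.41 and -0.36), nor in WT cells without batch 3 (-0.40). Without the filter on low counts neither passed (-0.35 and -0.42, edgeR adjusted p = 0.125 and 0.0532).

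Bcl2 (chromosome 1, 106538178 to 106714274, - strand) was low and reached its highest level on day 7. WT libraries held 9.03, 4.87, and 3.87 CPM on day 0, 4.92, 3.18, and 4.28 on day 1, 5.84, 6.22, and 3.06 on day 3, and 9.46, 12.8, and 7.56 on day 7. Batch 1 was high on day 0, so the WT groups of days 0 and 7 overlapped. The WT difference of 0.73 (SE 0.32) missed the threshold (edgeR adjusted p = 0.0533) and passed with batch as a replicate block (0.76, adjusted p = 0.0206) and without batch 1 (1.21, adjusted p = 0.0275). KO libraries rose from 7.20, 5.77, and 5.33 CPM to 12.5, 11.4, and 9.95 CPM, without overlap, by 0.88 (SE 0.31, adjusted p = 0.0206). That call was lost without batch 1 (0.94, adjusted p = 0.0718) or 2 (0.91, adjusted p = 0.0930). With the replicate block, Bcl2 also passed in KO cells on day 1 against day 0 (-0.74, adjusted p = 0.0322, against 0.0637 without the block) and in WT cells from day 3 to day 7 (1.00, adjusted p = 0.0250, against 0.0703).

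Of the listed effectors, Bak1 and Bok, which leave out Bax, Bok was the more abundant. Its product can form pores with little restraint by the prosurvival proteins. WT libraries held 15.1, 18.6, and 4.76 CPM on day 0, 25.6, 22.5, and 13.4 on day 1, 50.8, 35.8, and 33.4 on day 3, and 36.1, 33.7, and 49.0 on day 7. The groups of days 3 and 7 lay above all day 0 libraries. Bok (chromosome 1, 93685660 to 93695764, + strand) rose by day 3 by 1.63 on the log2 scale in WT (SE 0.35, edgeR adjusted p = 0.000569) and 1.54 in KO cells (SE 0.35, adjusted p = 0.000969), or 3.10-fold and 2.90-fold. It stayed there on day 7 (1.62 and 1.42), and all 4 calls held in each alternative. For Bok and for the sum of 6 fibroblast markers alike, batch 3 was lowest on days 0, 1, and 3 and highest on day 7, in both genotypes. The order of batches 1 and 2 differed between Bok and the sum on WT days 0 and 7 and on KO days 0 and 3. The 6 markers did not move together, with 2 up and 3 down past the threshold on WT day 7 against day 0. In WT cells these summed to 979, 499.8, and 293 CPM on day 0 and to 870, 951, and 1805 CPM on day 7, where batch 3 was lowest and then highest for both. The KO libraries of day 7 had the same order at the top, with 53.1 CPM of Bok and 2978 CPM of fibroblast markers in batch 3. From day 0 to day 1 the marker sum fell to 249, 156, and 135 CPM in WT cells while Bok was higher in each batch. The part of these markers in the level of Bok was not tested.

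Bak1, the effector held in check by MCL1 and BCL-XL, was the rarest member in fresh cells, with 7, 10, and 5 counts in the WT libraries (0.445, 1.08, and 0.554 CPM). WT libraries reached 1.77, 2.72, and 2.27 CPM on day 3 and 8.10, 6.88, and 3.25 CPM on day 7. No day 7 library overlapped a day 0 library. The log2 rise was 3.15 in WT (SE 0.58, edgeR adjusted p = 8.75e-05) and 2.09 in KO cells (SE 0.54, adjusted p = 0.00233), from 0.864, 0.911, and 1.47 CPM to 5.89, 4.75, and 3.32 CPM. At these counts the 95% interval of the WT rise ran from 1.95 to 4.35. The day 7 level was lowest in batch 3 in both genotypes, as was the sum of macrophage markers (123, 35.8, and 7.16 CPM in WT cells). On days 0, 1, and 3 Bak1 was instead lowest in batch 1 in both genotypes, where that sum was highest. In WT cells of batch 1 Bak1 held 0.734 CPM on day 1 and 1.77 CPM on day 3, beside sums of 157 and 110 CPM. The part of the macrophage markers was not tested. The rise by day 3 in WT cells (1.72, adjusted p = 0.0147) did not pass without batch 1 (1.59, adjusted p = 0.0546) or batch 3 (1.62, adjusted p = 0.100). Bak1 (chromosome 17, 27019810 to 27029009, - strand) shares 177 and 437 exon bases with 2 annotated entries of Ggnbp1 on the opposite strand, which had 417 and 304 counts over the 24 libraries, against 850 for Bak1, and whether counting used strand is not given.

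Among the BH3-only members, Bid had the largest rise by day 7. Its product is cut by caspase 8 and so joins death receptors to mitochondria. WT libraries held 5.15, 4.44, and 4.32 CPM on day 0, 20.1, 24.7, and 22.6 on day 1, 20.7, 25.6, and 24.7 on day 3, and 44.0, 43.6, and 34.3 on day 7. Every batch thus was low when fresh, intermediate on days 1 and 3, and high on day 7. Bid (chromosome 6, 120891930 to 120916853, - strand) rose by 2.27 on the log2 scale by day 1 (SE 0.21, edgeR adjusted p = 3.16e-08) and by 3.12 by day 7 (SE 0.22, adjusted p = 2.96e-10), or 8.70-fold. In KO cells it went from 5.33, 2.94, and 3.32 CPM to 23.1, 27.7, and 17.7 on day 1, 36.3, 29.2, and 31.1 on day 3, and 40.0, 44.5, and 34.1 on day 7. The KO rise by day 7 was 3.34 (SE 0.22, adjusted p = 1.36e-10). These calls, and those of day 3, held in each alternative. The second WT step, 0.78 from day 3 to day 7 (adjusted p = 0.0159), was lost when batch 1 (0.63), 2 (0.77), or 3 (0.92) was left out. In KO cells the step from day 1 to day 3 was 0.50 (adjusted p = 0.0676) and passed with the replicate block (0.51, adjusted p = 0.0443). Bid shares 628 exon bases (17.7% of its exons) with Bcl2l13 on the opposite strand, a gene with 17488 counts in all against 8219 for Bid. Bcl2l13 differed from day 0 by 0.14 on WT day 1 and 0.56 on day 7, beside 2.27 and 3.12 for Bid. Whether counting used strand is not given, and the part of the overlap in the counts of Bid was not tested.

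Bcl2l11 encodes BIM, which binds every prosurvival member and can activate the effectors. Its WT libraries held 47.8, 35.3, and 27.2 CPM on day 0, 46.2, 15.3, and 95.5 on day 1, 10.6, 8.88, and 10.3 on day 3, and 6.53, 6.47, and 8.02 on day 7. KO libraries held 31.8, 30.8, and 20.9 CPM, then 32.6, 17.4, and 54.0, then 7.34, 9.40, and 7.61, and last 8.29, 4.36, and 6.44. All libraries of days 3 and 7 were below all libraries of days 0 and 1, in both genotypes. By day 7 Bcl2l11 had log2 differences of -2.39 in WT (SE 0.47, edgeR adjusted p = 0.000171) and -2.12 in KO cells (SE 0.46, adjusted p = 0.000544), levels 5.25-fold and 4.34-fold lower, and both calls held in each alternative. Most of the fall came between days 1 and 3, with differences of -2.40 in WT (SE 0.46, edgeR adjusted p = 0.000694) and -2.09 in KO cells (adjusted p = 0.00249). Without batch 1 the WT value for that step held, but the KO value (-2.07) and the falls from day 0 to day 3 (-1.71 in WT, -1.60 in KO cells) no longer passed.

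Day 1 was where batches parted over Bcl2l11 (chromosome 2, 128126038 to 128162547, + strand). The highest WT library on that day held 6.25 times the lowest, and the highest KO library 3.10 times the lowest, with batch 3 first, 1 second, and 2 last in both genotypes. Among the 72 combinations of member and group, only Bak1 in KO cells on day 1 had a wider ratio, at 5 to 45 counts. The mean difference from day 0 was 0.51 in WT and 0.32 in KO cells, neither past the threshold, and it turned negative without batch 3 (-0.43 and -0.33). Without batch 2 the WT difference was 1.01 and passed (adjusted p = 0.0482). The sign of the day 1 difference therefore rests on batch 3.

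Bcl2l11 and Mcl1, which encode a pair that binds each other, were both lower on days 3 and 7 than on day 0 in both genotypes. By WT day 7 their log2 differences were -2.39 and -0.50. Over the 24 libraries their Pearson r of log2 CPM was 0.901, the highest of all pairs of members. Rbm39 and Mat2a stood higher with Bcl2l11, at 0.969 each. The r of Bcl2l11 and Mcl1 is a description over libraries that share batches and days, and a link to the binding was not tested. On day 1 batch 2 was lowest for both, with 263 and 288 CPM of Mcl1, and so was its sum of AEC2 markers. Mcl1 and the AEC2 sum had the same order of batches on that day in both genotypes, with batch 1 highest, then 3, then 2. Bcl2l11 differed from that order in having batch 3 highest. The part of AEC2 content in these values was not tested.

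**Figure D4:**
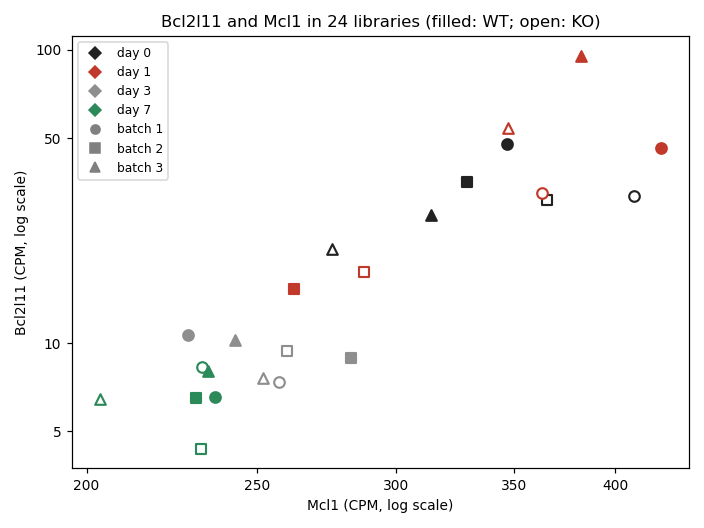
Bcl2l11 against Mcl1 (CPM, both axes logarithmic) in the 24 libraries, with colours for days, symbols for batches, filled points for WT, and open points for KO cells. Days 3 and 7 gather at the lower left, under 11 CPM of Bcl2l11 and 300 CPM of Mcl1, and the day 1 libraries spread from 15.3 to 95.5 CPM of Bcl2l11.

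Bad, a sensitizer whose activity is set by phosphorylation downstream of growth factors, fell early and stayed down. WT libraries held 31.3, 37.2, and 31.9 CPM on day 0, 19.6, 28.2, and 20.4 on day 1, 22.8, 19.1, and 23.0 on day 3, and 22.6, 20.2, and 19.2 on day 7. No cultured WT library reached the lowest fresh one. Bad (chromosome 19, 6941861 to 6951899, + strand) fell by 0.56 on the log2 scale on day 1 (SE 0.15, edgeR adjusted p = 0.00476) and by 0.69 on day 7 (SE 0.16, adjusted p = 0.000668), and KO cells fell by 0.69 by day 7 as well (SE 0.15, adjusted p = 0.000685). Both day 7 calls held in each alternative. The WT call of day 1 was lost without batch 1 (-0.51) or 3 (-0.51), the KO call of day 1 (-0.43) without batch 1 (-0.37) or 3 (-0.30), and the WT call of day 3 (-0.63) without batch 2 (-0.39). Both day 1 calls were also lost with only the libraries compared (-0.45 in WT, -0.36 in KO cells), and the KO call without a filter (-0.42). On day 3 KO cells were at 28.4, 24.8, and 29.7 CPM, a difference of -0.29 from day 0 that did not pass. Bad shares 524 exon bases (20.5%) with Gpr137 on the opposite strand, which had 4687 counts in all against 8411 for Bad.

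Bik, a BH3-only protein found largely at the endoplasmic reticulum, was highest by mean on day 3 in both genotypes and lower again on day 7. WT libraries held 10.1, 19.6, and 20.6 CPM on day 0, 9.47, 10.3, and 12.3 on day 1, 13.9, 17.9, and 26.0 on day 3, and 12.9, 9.87, and 8.29 on day 7. KO libraries held 10.2, 10.7, and 15.1 CPM, then 9.78, 10.9, and 10.4, then 21.8, 23.6, and 23.9, and last 12.8, 12.4, and 5.80. In both genotypes every day 3 library was above every day 1 and day 7 library. Bik (chromosome 15, 83526862 to 83544634, + strand) rose from day 1 to day 3 by 0.85 in WT (SE 0.30, edgeR adjusted p = 0.0387) and 1.15 in KO cells (SE 0.30, adjusted p = 0.00781). From day 3 to day 7 it fell by 1.16 in KO cells (adjusted p = 0.0136), while the WT difference of -0.90 did not pass (adjusted p = 0.0770). KO cells were also above day 0 on day 3, by 0.94 (SE 0.30, adjusted p = 0.0113), which did not pass without batch 2 (0.91). The WT rise did not pass without batch 1 (0.96), 2 (0.87), or 3 (0.69), the KO rise without batch 2 (1.15), and the KO fall without batch 2 (-1.29) or 3 (-0.85). With all batches kept, the WT rise was also lost with DESeq2's size factors (0.80) and with only the libraries compared (0.84). Between days 0 and 7 the WT difference of -0.69 missed the threshold (adjusted p = 0.0521) and passed without batch 1 (-1.15, adjusted p = 0.0114).

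Whether keratin 8 changes the family was asked by comparing KO with WT cells on each day and over days 1 to 7 (weights 0.167, 0.5, and 0.333 for days 1, 3, and 7). By edgeR's test 0 of the 9 members passed in each of the 5 comparisons, where 0.0277% of all genes passed on day 0, 0.0166% on each of days 1, 3, and 7, and 0.0277% over days 1 to 7. With so few genes called in all, a count of 0 is the background. At an unadjusted p under 0.05 edgeR had 0 members on day 0 (2.65% of all genes), 1 on day 1 (3.54%), 3 on day 3 (2.50%), 0 on day 7 (1.41%), and 2 over days 1 to 7 (2.88%). DESeq2 also passed 0, with 0, 1, 3, 0, and 1 at an unadjusted p under 0.05, where between 1.07% and 2.29% of its 32971 genes lay. Those genes were not filtered on low counts, so its shares do not have the same base as those of edgeR. The interaction of genotype and day passed for 0 members by both tools, against 0.00554% of all genes by edgeR, and 0 members had an unadjusted p under 0.05, against 1.49%. The median difference of the members over days 1 to 7 was 0.10 on the log2 scale, against 0.00336 for all genes.

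The intervals show how large a difference these libraries could hide. For Mcl1 over days 1 to 7 the difference was -0.03, with a 95% interval from -0.23 to 0.18. For Bcl2 it was 0.07 (-0.34 to 0.48), for Bok 0.10 (-0.34 to 0.53), and for Bid 0.21 (-0.04 to 0.46). Those of Bcl2l11 (-0.29, from -0.88 to 0.30) and Bak1 (-0.16, from -0.83 to 0.50) were the widest of the 9, so for these only a larger genotype difference could have been detected.

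**Figure D5:**
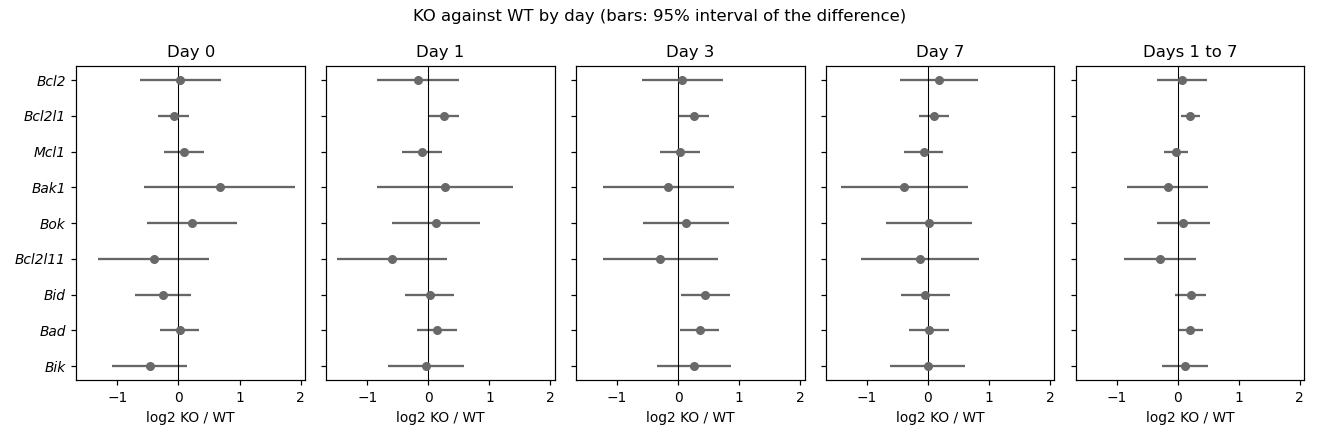
Log2 difference of KO against WT cells (x axis) for each member on days 0, 1, 3, and 7 and over days 1 to 7, with 95% intervals as bars. None passed the adjusted threshold, and the intervals are narrowest for Bcl2l1 and widest for Bak1 and Bcl2l11.

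Bcl2l1 came nearest to a genotype difference. On day 3 WT libraries held 132, 153, and 125 CPM and KO libraries 165, 156, and 168 CPM, which did not overlap. The log2 difference was 0.26 on day 3 (unadjusted edgeR p of 0.0414) and 0.26 on day 1 (unadjusted p of 0.0408), and 0.21 over days 1 to 7 (SE 0.07, unadjusted p of 0.0106, adjusted p = 1.00). Without batch 1, in which the sexes differed, the latter was 0.23 (unadjusted p of 0.0520), and it lay between 0.14 and 0.24 over all alternatives. Bid on day 3 (0.44) and Bad on day 3 (0.36) also had groups that did not overlap, each with an unadjusted p of 0.0315 and an adjusted p of 1.00. These 3 of 9 members stand beside 11.0% of all genes whose groups did not overlap on that day. Without batch 1 the difference over days 1 to 7 was 0.13 for Bid and 0.25 for Bad, beside 0.21 for each with all libraries. Batch itself passed for 0 of the 9 members by edgeR, against 3.37% of all genes, with 1 member, Bcl2, at an unadjusted p under 0.05 (p of 0.0317), against 19.3%. DESeq2 passed 0 members for batch too, with 2 at an unadjusted p under 0.05, against 11.6% of its 32971 genes without the filter.

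The rest of the pathway was described from 4 lists written from textbook knowledge. Of 14 other BCL2 family genes, 13 were tested, and in WT cells 4 were up and 5 down past the threshold on day 1, with 4 up and 3 down on day 3 and 4 up and 5 down on day 7. Of 18 genes of the apoptosome and caspases, 4 were up and 9 down on day 1, with 7 up and 10 down on day 7. Of 7 death receptor genes, 2 were up and 2 down on both of these days, and of 10 partners of BCL2 proteins 2 were up and 3 down on day 1, with 4 up and 2 down on day 7. The WT day 7 medians of these lists were -0.67, -0.50, 0.18, and 0.28 on the log2 scale. Among all genes tested in WT cells 26.2% were up and 28.5% down on day 1, 26.1% and 27.8% on day 3, and 28.6% and 30.2% on day 7, and the counts of the lists are read as descriptions beside these shares. Over days 1 to 7, 0 genes of the 4 lists passed between KO and WT cells by edgeR.

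The genes of the 4 lists with the 2 largest rises on WT day 1 were Hrk and Pmaip1, and on WT day 7 Pmaip1 and Bcl2l15. Pmaip1 encodes NOXA, a BH3-only protein that binds MCL1, and went from 18 counts in the 3 fresh WT libraries to a mean of 20.7 CPM on day 1 and 461 CPM on day 7 (± 202, SD, n = 3). Its log2 rise was 5.31 on WT day 1 (edgeR adjusted p = 4.21e-07), 9.78 on WT day 7 (SE 0.63, adjusted p = 1.27e-10), and 10.18 on KO day 7. Hrk, a BH3-only gene known from neurons, had 1 count in the fresh WT libraries, 113 on day 1, and 0 on day 7. The day 1 ratio of counts per library total was 130.0, with a 95% counting interval from 22.9 to 5178. Bcl2l15, a little-studied member, rose from 10 counts to 15.8 CPM on WT day 7 (log2 rise 5.63, SE 1.00, adjusted p = 6.52e-05).

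On both days the largest falls in WT cells were of Bmf, a BH3-only gene tied to loss of anchorage, and Itpr2, a calcium channel of the endoplasmic reticulum on which BCL2 acts. Bmf went from 55.1 CPM ± 14.8 in fresh WT cells to 1.69 ± 0.712 on day 1 and 1.73 ± 0.141 on day 7 (SD, n = 3), log2 falls of -5.01 and -4.99 (SE 0.48 each, edgeR adjusted p = 4.20e-08 and 2.31e-08). It fell in KO cells too, by 4.63 on day 1 and by 6.10 on day 7. Itpr2 went from 155 to 20.0 and 10.5 CPM (log2 differences -2.96 and -3.89). Bmf was thus past the threshold by day 1, and Bcl2l11 first by day 3.

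Bax, the effector that acts beside BAK, and Bbc3, which encodes the BH3-only protein PUMA, were picked after their values were seen. Bax was at 36.9, 44.8, and 45.6 CPM in fresh WT cells and at 153, 307, and 239 CPM on day 1, a log2 rise of 2.46 (SE 0.20, edgeR adjusted p = 5.79e-09) that was 2.14 on day 7. Bbc3 fell in WT cells by 0.94 on day 1 and by 1.21 on day 7 (adjusted p = 5.1e-05). All 3 effector genes, Bak1, Bok, and Bax, were therefore higher on day 7 than in fresh cells in both genotypes.

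The genes whose log2 CPM ran most like each member over the 24 libraries, among 15293 genes with a symbol and a mean of at least 1 CPM, are given as a description. Bid ran with Fgd3 (Pearson r = 0.983) and with Krt7, a keratin of the transitional state (0.980). Bcl2l11 ran with Rbm39 and Mat2a (0.969 each), and Mcl1 with Ccng2 (0.938) and Jun (0.934). Bok ran with Eml1 (0.950) and Slc16a3 (0.947), Bak1 with Capzb (0.938) and Dbndd2 (0.928), and Bcl2l1 with Acta1 (0.937) and Rab11fip5 (0.930). Bad ran with Ppdpf (0.927) and Cetn2 (0.903), Bcl2 with Col18a1 (0.916) and Ptprk (0.871), and Bik, the least matched, with Efna1 (0.809) and Ssx2ip (0.806). By Spearman's rho 1 of the 2 nearest genes was the same for 6 members, and none was for Bid, Bcl2l11, and Bcl2l1, so the named genes depend on the measure. All points share days and batches, so genes that follow the culture day score high together.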

How the data were processed

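AECs of 24 samples were profiled by RNA-seq. The authors deposited 1 table of expected counts per gene, listed as whole numbers and not normalized, with 55426 entries, of which 5 are reporter genes. The submitters' processing notes name cutadapt 2.3, STAR 2.7.8a, RSEM 1.3.3, and GRCm38, and no settings or use of strand were stated in these sources. Symbols and exon lengths came from GENCODE M21 (GRCm38), and promoter windows from RefSeq (GRCm38.p6).

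Counts were taken as listed. Genes were filtered with filterByExpr (minimum count 10), scaled by TMM, and tested in edgeR 4.0.16 (R 4.3.3) with a quasi-likelihood model of 8 groups (16 residual degrees of freedom) over 18046 genes. Benjamini-Hochberg adjusted p-values under 0.05 were called. P-values measure the spread between the 3 batches. The alternatives were DESeq2 1.42.0, its size factors, no filter, batch as a replicate block, each batch left out, only the libraries compared, equal weights of days, longest transcripts, and Spearman correlation. The scripts were tested on simulated data.

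The replicate numbers stand for shared batch labels. The deviations of same-numbered libraries from their group means correlated at -0.0345 to 0.383 over 30 pairs for days and at 0.0573 to 0.548 over 12 pairs for genotypes. The members were chosen by name and not by their values, although earlier results of these data were known. The gene lists were also written with those results known. Named beside the members were the 2 genes with the largest rise and the 2 with the largest fall among the lists on WT days 1 and 7 (adjusted p under 0.05, at least 1 CPM in a group, same direction in 3 batches), the 2 genes most like each member, and Krt8 and sex-linked genes as checks. The counts and intervals from small counts cover counting error only.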

Additional observations from a re-analysis of the deposited data

Results flagged for a closer look

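Bcl2l1 was the one member whose genotype difference pointed one way in all 3 batches on 1 day and the other way in all 3 on other days. In fresh cells the KO libraries were lower in 3 of 3 batches, with a log2 difference of -0.081, although in batch 1 the level was 118 CPM in both genotypes, so that the count of 3 rests on a difference under 0.1 CPM there. They were higher in 3 of 3 batches on day 1, with a difference of 0.259, and on day 3, with 0.257. The change of direction was not tested alone. The interaction of genotype and day, a joint test over all days, had an unadjusted p of 0.171 and an adjusted p of 1.00 in edgeR. In batch 1 the genotypes also differed in sex.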

How the results depend on the processing

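Of 99 log2 differences of members, 43 passed the threshold, and 22 of these passed under each alternative (6 of Bid, 4 of Bcl2l1, 4 of Bok, 3 of Bcl2l11, 2 of Bak1, 2 of Bad, and 1 of Mcl1). The other 21 lost their call under at least 1 alternative with the direction kept, 11 of them only where a batch was left out, which leaves fewer libraries. No call was lost with DESeq2 or with batch as a replicate block. The block, which pairs libraries by batch, added 4 member calls, namely Bcl2 in WT cells on day 7 against day 0 (0.76) and against day 3 (1.00), Bcl2 on KO day 1 (-0.74), and Bid from KO day 1 to day 3 (0.51), and changed no other call.

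Signs turned only for differences that had not passed. Over the batches left out in turn, Bcl2 ran from -0.46 to 0.083 on WT day 3 against day 0, from -0.045 to 0.57 from WT day 1 to day 3, and from -0.074 to 0.20 between genotypes over days 1 to 7. On KO day 1 against day 0, Mcl1 ran from -0.25 to 0.14 and Bak1 from -0.29 to 0.96, and Mcl1 was at 0.00495 with only the libraries compared. From day 3 to day 7, Bok ran from -0.31 to 0.26 in WT cells (0.030 with the block) and from -0.47 to 0.11 in KO cells. Bcl2l11 ran from -0.43 to 1.01 on WT day 1 and from -0.33 to 0.81 on KO day 1. Bad ran from -0.21 to 0.19 from WT day 1 to day 3 and from -0.15 to 0.036 from day 3 to day 7, and Bik from -0.52 to 0.26 on KO day 7 against day 0.

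Counts of members called moved by more than 1.5 times in these cases. From WT day 3 to day 7 (2 members) the count was 4 with DESeq2, 1 without a filter, 1 with only the libraries compared, and 0 without any 1 batch. From WT day 1 to day 3 (4) it was 2 with DESeq2's size factors, 2 with only the libraries compared, and 1 to 2 with a batch left out. With a batch left out it was 1 to 3 for WT day 1 against day 0 (2, and 1 with only the libraries compared), 3 to 4 for WT day 3 against day 0 (6), 1 to 3 from KO day 1 to day 3 (3), and 0 to 1 from KO day 3 to day 7 (2, and 1 without a filter). The genes called among all tested ranged from 325 to 1762 from WT day 3 to day 7 (1188), from 834 to 2545 from KO day 3 to day 7 (1903), from 1842 to 4855 from KO day 1 to day 3 (4252), from 2614 to 5305 from WT day 1 to day 3 (4740), and from 4 to 17 between genotypes over days 1 to 7 (5). With longest transcripts, the WT day 0 share of Mcl1 was 49.7% and that of Bcl2l1 22.9%. Low counts limit Bak1. The cause of these changes was not tested.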
